A study of Mesocricetus auratus with 6 samples.

Results

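The BCL2 family decides at the mitochondrial outer membrane whether a stressed cell lives or dies. Protective members (BCL2, BCL-XL and MCL-1) bind and hold the killing members in check. The pore-forming members BAX and BAK, once freed, open the membrane and let cytochrome c out, which activates caspases. BH3-only members (BIM, BAD, BID and PUMA) carry stress signals into the family by occupying the protective proteins or by activating BAX and BAK directly.

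The 10 genes described here were chosen by symbol, as main members of the family, and found by their NCBI Gene IDs among 16078 genes. They are the protective genes Bcl2, Bcl2l1 (BCL-XL) and Mcl1, the pore-forming genes Bax, Bak1 and Bok, and the BH3-only genes Bcl2l11 (BIM), Bad, Bid and Bbc3 (PUMA). The rule that names them holds no measured value, although earlier results of these data were known when it was written, and all 10 were in the files. Of these, 9 passed a filter on low values (a group mean of at least 1 FPKM), and Bok did not.

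The libraries came from BHK21, a fibroblast-like line derived from the kidneys of golden hamsters that the labels give as 1 day old. There were 3 libraries from cells transfected with STYK1/NOK, a kinase-like membrane protein studied as an oncogene (named STYK1 1, 2 and 3 here). The other 3 were from cells that received the empty expression plasmid pCMV-Myc (vector 1, 2 and 3). Total RNA was taken 48 after transfection, a time printed without a unit in the labels. All libraries share the cell line and a transfection, with no untransfected cells among them. The labels give neither the share of cells that took up the plasmid nor whether libraries of a group were separate cultures, so every p below measures spread between libraries that may be technical. Bulk values cannot tell fewer expressing cells from less RNA per cell.

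Values are FPKM, fragment counts scaled by transcript length and by the mapped fragments of the library. Levels of different genes within a library can be compared only as far as the lengths used were right. The genome and annotation behind these lengths are not given, so the order of genes and sums over genes carry this uncertainty. FPKM sums were 528160 to 542638 in STYK1 libraries and 554681 to 619840 in vector libraries, the highest in vector 1. Depth relative to STYK1 1 lay between 0.979 and 1.03. Vector 1 stood apart: over 11464 genes it correlated with the other libraries at a Pearson r of 0.963 to 0.976, and pairs without it reached 0.988 to 0.993. It was the highest of the 6 libraries for 37.1% and the lowest for 36.2% of tested genes, 73.3% in all, so the difference of each tested member is given with and without it. Hamster Styk1 itself was listed at 2.04, 2.46 and 2.41 FPKM in STYK1 1, 2 and 3. In vector 1, 2 and 3 it was at 1.50, 1.80 and 1.89 FPKM. The groups did not overlap, as for 13.6% of all tested genes higher in that way. Its log2 difference of 0.28 ± 0.14 (SE) did not pass (limma-trend, Benjamini-Hochberg adjusted p = 0.470), and was 0.21 without vector 1. Whether reads from the transfected STYK1/NOK would be counted under this gene is not known. Of the mesenchymal markers, Vim was at 3650 to 3950 FPKM in STYK1 and 3915 to 4141 FPKM in vector libraries. Fn1 was at 208 to 229 FPKM in STYK1 and 191 to 228 FPKM in vector libraries, Pdgfra at 276 to 330 FPKM in STYK1 and 184 to 303 FPKM in vector libraries, and Pdgfrb at 35.7 to 38.0 FPKM in STYK1 and 35.2 to 39.2 FPKM in vector libraries, while Col1a1, Col1a2, Col3a1 and Thy1 stayed at or below 1.02 FPKM. The kidney epithelial markers Epcam, Cdh1, Cdh16 and Krt18 and the podocyte marker Nphs1 were at 0.23 FPKM or below in every library. The macrophage marker Cd68 was at 279 to 295 FPKM in STYK1 and 288 to 351 FPKM in vector libraries, and Csf1r at 2.91 to 3.56 FPKM in STYK1 and 3.03 to 3.70 FPKM in vector libraries, although the leukocyte gene Ptprc did not exceed 0.16 FPKM. Of the endothelial markers, Cdh5 was at 6.13 to 9.11 FPKM in STYK1 and 4.45 to 8.23 FPKM in vector libraries, and Pecam1 did not exceed 0.54 FPKM.

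The family in these cells was dominated by Mcl1 and Bax. Averaged over the 6 libraries, the order of levels was Mcl1 at 171 FPKM, Bax at 119, Bcl2l1 at 61.2, Bak1 at 27.1, Bbc3 at 27.0, Bad at 22.6, Bcl2l11 at 11.0, Bcl2 at 3.99, Bid at 2.36 and Bok at 0.10 FPKM. Mcl1, a short-lived protective protein, thus ranked 482 of all 16078 genes by mean level, and Bax ranked 738. The ranges over the libraries were apart between Bax and Bcl2l1, between Bcl2l1 and Bak1, between Bad and Bcl2l11, between Bcl2l11 and Bcl2, and between Bid and Bok. Mcl1 lay above Bax in 5 of 6 libraries, with vector 1 the exception. Bak1 was above Bad in every library, and Bbc3 changed places with both, so its place in the order is not settled by these values. Bcl2 was above Bid in 6 of 6 libraries, though their ranges overlapped.

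**Figure D1:**
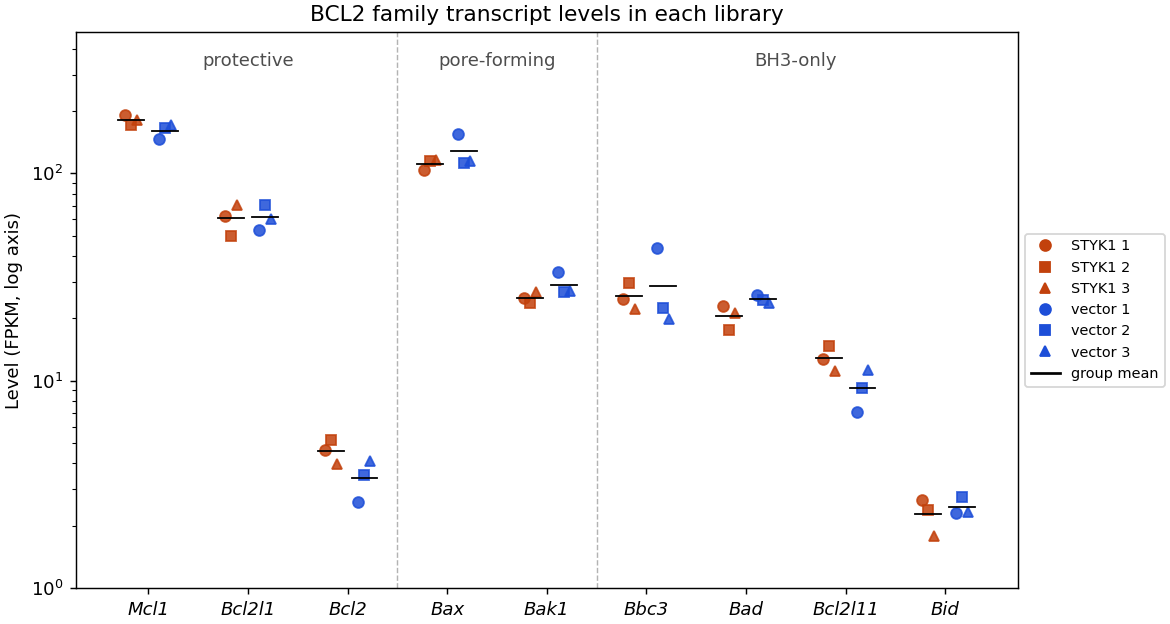
Levels of the 9 tested BCL2 family genes in FPKM on a log axis, with each library as a point (STYK1 libraries left, vector libraries right of each gene) and the group means as lines. Mcl1 and Bax lie highest, Bcl2 and Bid lowest, and vector 1 is the highest point of Bax and Bbc3 and the lowest of Mcl1, Bcl2 and Bcl2l11. Bok is left out because 2 of its values are 0.

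Between the groups, no family member passed the test: 0 of 9 at an adjusted p under 0.05, beside 0% of all 11464 genes tested (limma-trend on log2(FPKM + 1), adjusted over all genes). At an unadjusted p under 0.05 there was 1 of 9 members, Bcl2l11, beside 9.84% of all genes (4.95% higher and 4.88% lower). The groups did not overlap for 3 of 9 members, beside 23.1% of all genes. Mcl1 was the member with every STYK1 library above every vector library (13.6% of all genes), and Bak1 and Bad were the members with every STYK1 library below (9.44% of all genes). The median log2 difference of the 9 members was -0.09, against 0.01 for all tested genes, and without vector 1 it was -0.03 against 0.02. These shares are close to those of genes at large or rest on a few members, and the values that follow are given as measurements. A two-sided exact permutation test on any single gene could not go below p = 0.1 with 3 libraries against 3.

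Of the protective members, Mcl1 (Gene ID 101842733) was at 191.94, 171.10 and 181.78 FPKM in STYK1 1, 2 and 3, and at 146.83, 165.69 and 170.99 FPKM in vector 1, 2 and 3. The groups were separated by the small gap between STYK1 2 and vector 3. The means were 182 ± 10.4 FPKM in STYK1 and 161 ± 12.7 FPKM in vector libraries (SD, n = 3 each), a ratio of 1.13, and the log2 difference was 0.17 ± 0.09 (SE; 95% interval -0.03 to 0.38; limma-trend adjusted p = 0.470). Without vector 1 it was 0.11 (interval -0.04 to 0.26), and the ratio of means 1.08.

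Bcl2 (Gene ID 101833785), the founding member of the family, was scarce in these cells. It measured 4.65, 5.15 and 3.96 FPKM in STYK1 1, 2 and 3, and 2.60, 3.49 and 4.08 FPKM in vector 1, 2 and 3. STYK1 3 lay below vector 3, so the groups overlapped. The log2 difference was 0.36 ± 0.17 (SE; interval -0.03 to 0.74; adjusted p = 0.469), and 0.22 without vector 1, its lowest library. Bcl2 made up 1.87% ± 0.369 of the summed FPKM of the protective genes in STYK1 and 1.49% ± 0.227 in vector libraries (SD, n = 3 each), while Mcl1 made up 73.6% ± 2.33 in STYK1 and 71.3% ± 1.93 in vector libraries. In vector 2 and 3 alone the shares were 1.59% for Bcl2 and 70.8% for Mcl1.

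Bcl2l1 (Gene ID 101834682), which encodes the long-lived protector BCL-XL and was the protective gene next after Mcl1 in level, varied as much within the groups as between them. It was at 62.04, 50.18 and 70.20 FPKM in STYK1 1, 2 and 3, and at 53.58, 70.57 and 60.56 FPKM in vector 1, 2 and 3. The lowest of the 6 was STYK1 2 and the highest vector 2. Its log2 difference was -0.02 ± 0.14 (SE; interval -0.35 to 0.31; adjusted p = 0.949), and the sign turned with the scaling, at 0.09 with FPKM sums made equal and 0.01 after quantile normalization. Without vector 1 it was -0.12 (interval -0.42 to 0.19).

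**Figure D2:**
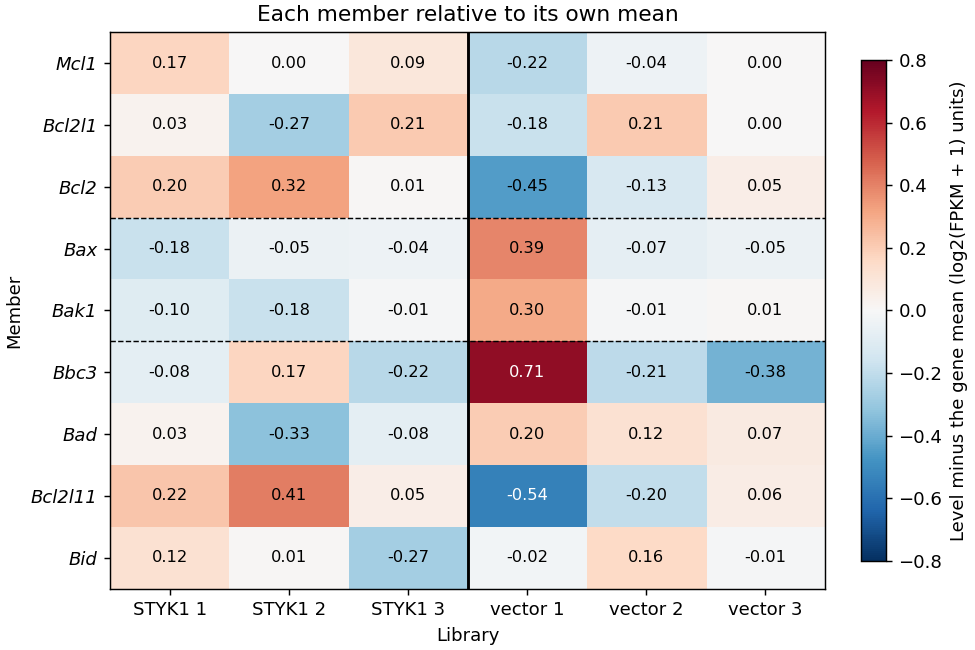
Each tested member's level in each library minus its own mean over the 6 libraries, in log2(FPKM + 1) units (red above, blue below; STYK1 libraries left of the solid line, vector libraries right). In vector 1, Bax (0.39), Bak1 (0.30) and Bbc3 (0.71) lie above their means and Mcl1 (-0.22), Bcl2 (-0.45) and Bcl2l11 (-0.54) below, and STYK1 2 holds the highest Bcl2l11 (0.41) and the lowest Bad (-0.33).

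Of the pore-forming members, Bax (Gene ID 101842912) was at 104.22, 114.34 and 115.61 FPKM in STYK1 1, 2 and 3, and at 155.38, 112.75 and 114.69 FPKM in vector 1, 2 and 3. Vector 1 alone was far from the others, at 1.37 times the mean of vector 2 and 3. The means were 111 ± 6.24 FPKM in STYK1 and 128 ± 24.1 FPKM in vector libraries (SD, n = 3 each), and the log2 difference was -0.18 ± 0.13 (SE; interval -0.48 to 0.12; adjusted p = 0.527). Without vector 1 the difference was -0.03 (interval -0.18 to 0.12) and the ratio of means 0.98.

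Bak1 (Gene ID 101838274), whose protein sits on the outer membrane already in healthy cells, had 25.17, 23.68 and 26.70 FPKM in STYK1 1, 2 and 3, and 33.41, 26.78 and 27.10 FPKM in vector 1, 2 and 3. The groups did not overlap, but STYK1 3 and vector 2 differed little. The log2 difference was -0.20 ± 0.11 (SE; interval -0.45 to 0.06; adjusted p = 0.476), and -0.10 without vector 1. Bok (Gene ID 101832997), a BAX-like pore former, was listed at 0.10, 0 and 0 FPKM in STYK1 1, 2 and 3, and at 0.20, 0.10 and 0.20 FPKM in vector 1, 2 and 3. Such levels were too low to compare, and Bax supplied 81.5% ± 1.20 of the summed pore-forming FPKM in STYK1 and 81.2% ± 0.840 in vector libraries (SD, n = 3 each).

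The BH3-only members did not share a direction. Bcl2l11 (Gene ID 101835926), which encodes BIM, an activator that binds all the main protective proteins, had the smallest p of the family. It measured 12.71, 14.65 and 11.15 FPKM in STYK1 1, 2 and 3, and 7.08, 9.26 and 11.24 FPKM in vector 1, 2 and 3. The means were 12.8 ± 1.75 FPKM in STYK1 and 9.19 ± 2.08 FPKM in vector libraries (SD, n = 3 each), a ratio of 1.40, yet STYK1 3 lay just under vector 3. The log2 difference was 0.45 ± 0.17 (SE; interval 0.06 to 0.85), with an unadjusted p of 0.0282 and an adjusted p of 0.469 (limma-trend). Without vector 1 it was 0.30, with an unadjusted p of 0.0530.

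Bad (Gene ID 101836153), whose protein is held off the mitochondria by 14-3-3 proteins when survival kinases phosphorylate it, was at 22.93, 17.64 and 21.15 FPKM in STYK1 1, 2 and 3, and at 25.93, 24.51 and 23.72 FPKM in vector 1, 2 and 3. The vector libraries were close together and all above the STYK1 libraries. The means were 20.6 ± 2.69 FPKM in STYK1 and 24.7 ± 1.12 FPKM in vector libraries (SD, n = 3 each). The log2 difference of -0.26 ± 0.11 (SE; unadjusted p = 0.0501, adjusted p = 0.469, limma-trend) moved little without vector 1, at -0.23 ± 0.11. It was -0.16 when STYK1 2, the lowest library, was left out, and -0.15 with equal FPKM sums (unadjusted p = 0.218).

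Bbc3 (Gene ID 101826940) encodes PUMA, an activator induced by stress signals. It measured 24.69, 29.48 and 22.25 FPKM in STYK1 1, 2 and 3, and 43.45, 22.50 and 19.89 FPKM in vector 1, 2 and 3. Vector 1 was at 2.05 times the mean of the other vector libraries, the widest such gap among the 10 members. The log2 difference was -0.09 ± 0.26 (SE; interval -0.69 to 0.51; adjusted p = 0.888) and turned to 0.25 ± 0.12 (interval -0.03 to 0.52) without vector 1. It was also above 0, at 0.02, with equal FPKM sums.

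Bid (Gene ID 110340167), which links death receptors to mitochondria after cleavage by caspase-8, was at 2.65, 2.37 and 1.78 FPKM in STYK1 1, 2 and 3, and at 2.31, 2.75 and 2.32 FPKM in vector 1, 2 and 3. The groups overlapped, and the log2 difference was -0.09 ± 0.16 (SE; interval -0.45 to 0.27; adjusted p = 0.787), and -0.12 without vector 1. A scale that adds 1 FPKM understates changes of a gene this low.

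**Figure D3:**
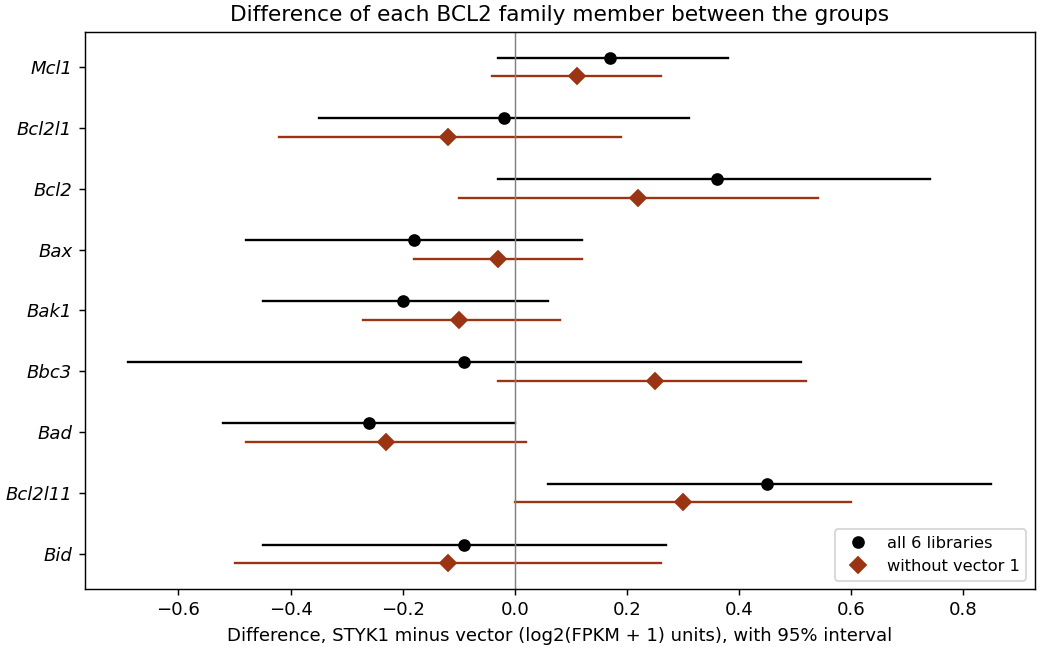
Log2 difference, STYK1 minus vector, of the 9 tested members with 95% intervals from limma-trend, in all 6 libraries (circles) and without vector 1 (diamonds). The interval of Bcl2l11 (0.06 to 0.85) is the one that leaves out 0 in all 6 libraries, and Bbc3 lies at -0.09 with vector 1 and at 0.25 without it.

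Without vector 1, 5 of the 9 members had a log2 difference smaller by over 1.5 times. Bcl2l1 and Bid had larger ones, and 1 (Bbc3) had the other sign. An unadjusted p under 0.05 was then reached by 0 members, beside 9.45% of all genes. Vector 1 was the highest library for Bax, Bak1, Bad and Bbc3 and the lowest for Mcl1, Bcl2 and Bcl2l11, so 4 of 9 members beside 37.1% of all genes were highest there and 3 of 9 beside 36.2% lowest. What sets vector 1 apart was not tested.

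The balance of protective and killing members was then taken within each library, where the scaling of a library cancels. The summed FPKM of the 3 protective genes was 259, 226 and 256 in STYK1 1, 2 and 3, and 203, 240 and 236 in vector 1, 2 and 3. The sum of the 7 killing genes was 192, 202 and 199 in STYK1 1, 2 and 3, and 268, 199 and 199 in vector 1, 2 and 3. The killing sum was thus nearly the same in every library except vector 1, which held more. Protective over killing transcripts came to 1.34, 1.12 and 1.29 in STYK1 1, 2 and 3, and to 0.758, 1.21 and 1.18 in vector 1, 2 and 3. STYK1 2 lay below vector 2 and 3, so the groups overlapped.

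The mean ratio was 1.25 ± 0.117 in STYK1 and 1.05 ± 0.252 in vector libraries (SD, n = 3 each), a difference no larger than the spread of the vector libraries. On the log2 scale the difference was 0.28 with all libraries and 0.06 without vector 1. Against the pore-forming genes alone, the ratio was 1.81 ± 0.179 in STYK1 and 1.48 ± 0.356 in vector libraries, with a mean of 1.69 in vector 2 and 3 alone, and its log2 difference was 0.32 with all libraries and 0.10 without vector 1. The ratio to the BH3-only genes was 4.06 ± 0.508 in STYK1 and 3.59 ± 0.875 in vector libraries, and 4.09 in vector 2 and 3 alone. No p is given for these sums, since they are scores over chosen genes that Mcl1 and Bax dominate, and transcript ratios say nothing of protein amounts.

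**Figure D4:**
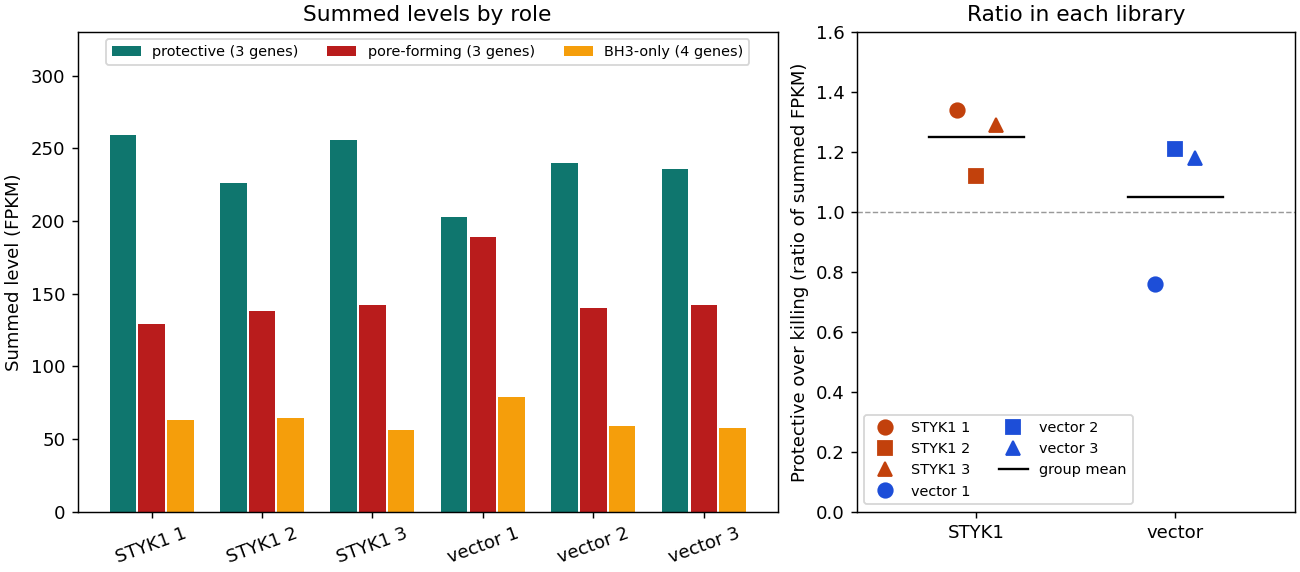
Left, summed FPKM of the protective, pore-forming and BH3-only genes in each library as bars. Right, the ratio of protective to killing sums in each library (points) with group means (lines) and a dashed line at equal sums; vector 1, at 0.758, is the library below 1, and the other 5 lie between 1.12 and 1.34.

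Ratios of single pairs were taken in the same way. Mcl1 over Bak1 was 7.63, 7.23 and 6.81 in STYK1 1, 2 and 3, and 4.39, 6.19 and 6.31 in vector 1, 2 and 3. Mcl1 over Bax was 1.84, 1.50 and 1.57 in STYK1 1, 2 and 3, and 0.945, 1.47 and 1.49 in vector 1, 2 and 3. Of 6 pairs of a protective gene with Bax or Bak1, these 2 did not overlap between the groups. The share without overlap was 23.1% for single genes and was not computed for ratios of 2 genes. Both ratios hold Mcl1, which itself did not overlap, and for Mcl1 over Bax the nearest libraries, STYK1 2 and vector 3, were barely apart. Bcl2 over Bax, a pair often used as an index of sensitivity to apoptosis, was 0.0446, 0.0450 and 0.0343 in STYK1 1, 2 and 3, and 0.0167, 0.0310 and 0.0356 in vector 1, 2 and 3, with STYK1 3 below vector 3. Bcl2l11 over Mcl1 was 0.0662, 0.0856 and 0.0613 in STYK1 1, 2 and 3, and 0.0482, 0.0559 and 0.0657 in vector 1, 2 and 3, with an overlap again.

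The make-up of the BH3-only group varied by library. Bcl2l11 supplied 20.2%, 22.8% and 19.8% of its summed FPKM in STYK1 1, 2 and 3, and 8.99%, 15.7% and 19.7% in vector 1, 2 and 3. Every STYK1 library was above every vector library, though STYK1 3 and vector 3 were barely apart. The mean share was 20.9% ± 1.66 in STYK1 and 14.8% ± 5.39 in vector libraries (SD, n = 3 each), and 17.7% in vector 2 and 3 alone. How often such shares do not overlap for other genes was not computed. Bbc3 supplied 39.2%, 46.0% and 39.5% in STYK1 1, 2 and 3, and 55.2%, 38.1% and 34.8% in vector 1, 2 and 3. Bad supplied 36.4%, 27.5% and 37.5% in STYK1 1, 2 and 3, and 32.9%, 41.5% and 41.5% in vector 1, 2 and 3. The groups overlapped for the shares of Bbc3 and Bad.

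The other family genes were given by a list of 13, of which 12 were in the files and 8 were tested. None of the 8 passed (limma-trend, 0 after adjustment and 0 by the unadjusted p), and their median log2 difference was 0.02, against 0.01 for all genes, and 0.07 against 0.02 without vector 1. Bnip3 and Bnip3l, receptors for the removal of mitochondria by autophagy, measured 49.2 ± 2.37 FPKM and 25.3 ± 2.44 FPKM in STYK1 libraries, and 49.5 ± 2.88 FPKM and 24.9 ± 1.33 FPKM in vector libraries (SD, n = 3 each). Bcl2a1, a protective gene driven by NF-kB, was at 15.70, 15.89 and 18.73 FPKM in STYK1 1, 2 and 3, and at 10.80, 18.14 and 18.89 FPKM in vector 1, 2 and 3. Its level lay between those of Bad and Bcl2l11 in each of the 6 libraries. Hrk and Bcl2l10 were at 0.15 FPKM or below in all 6 libraries, and Bcl2l2 was not analysed here.

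The BH3-only genes Bmf and Pmaip1 were uneven within the groups. Bmf, whose protein responds to loss of anchorage, was at 5.92, 9.20 and 6.56 FPKM in STYK1 1, 2 and 3, and at 9.34, 5.78 and 6.33 FPKM in vector 1, 2 and 3. Pmaip1, which encodes NOXA, a partner chiefly of MCL-1, was at 3.70, 7.41 and 2.40 FPKM in STYK1 1, 2 and 3, and at 4.27, 2.75 and 3.69 FPKM in vector 1, 2 and 3. STYK1 2 and vector 1 held the highest values of both genes, as they did of Bbc3. Other tested BH3-only genes did not have this order. Bad was lowest in STYK1 2, Bcl2l11 was lowest in vector 1, and Bid was highest in vector 2. Bik was at 2.43 FPKM in vector 1 but at 0.75 FPKM in STYK1 2. Vector 1 alone was highest for 37.1% of all genes, and the share with both libraries highest was not computed.

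Genes downstream of the mitochondrial pore were measured next. Of 7 tested genes of mitochondrial release and the apoptosome, 0 passed, 1 was higher and 1 lower at an unadjusted p under 0.05, beside 4.95% and 4.88% of all genes, and the median log2 difference was -0.02. Of the 7, 1 was higher and 2 were lower without overlap between the groups, beside 13.6% and 9.44% of all genes. Apaf1, the scaffold of the apoptosome, was at 7.55, 9.09 and 7.16 FPKM in STYK1 1, 2 and 3, and at 5.11, 7.06 and 5.62 FPKM in vector 1, 2 and 3, with no overlap (log2 difference 0.37 ± 0.15 SE, adjusted p = 0.469, limma-trend; 0.28 without vector 1). Endog, a mitochondrial nuclease, was at 8.46, 9.60 and 7.94 FPKM in STYK1 1, 2 and 3, and at 17.95, 14.78 and 12.59 FPKM in vector 1, 2 and 3. That log2 difference of -0.73 ± 0.14 (SE; adjusted p = 0.469, limma-trend) was the widest among the apoptosis genes listed, and it was -0.60 without vector 1. Htra2, a protease that relieves caspase inhibition, lay at 24.07 to 26.91 FPKM in STYK1 libraries and at 42.78, 28.55 and 26.02 FPKM in vector 1, 2 and 3, so the groups overlapped.

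Of 6 tested caspases, 0 passed at either threshold, and the median log2 difference was 0.11 (0.08 without vector 1). The initiator Casp8 was at 7.20, 7.69 and 8.66 FPKM in STYK1 1, 2 and 3, and at 7.91, 5.77 and 7.80 FPKM in vector 1, 2 and 3. Its groups overlapped. Of 3 tested inhibitors of apoptosis, Birc6, a giant ubiquitin ligase, had 23.87, 24.94 and 21.97 FPKM in STYK1 1, 2 and 3, and 14.34, 20.94 and 21.06 FPKM in vector 1, 2 and 3. Its groups did not overlap, 1 of the 3 in the list, beside 13.6% of all genes higher in that way. The log2 difference of 0.33 ± 0.15 (SE; adjusted p = 0.469, limma-trend) was 0.16 without vector 1, and the list's median was 0.19 with and 0.02 without that library. Xiap and Birc3 were not analysed here.

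Death receptor genes and adaptors gave 0 of 6 tested at either threshold and a median log2 difference of 0.15 (0.08 without vector 1). The kinase gene Ripk1 was at 13.84, 13.62 and 14.36 FPKM in STYK1 1, 2 and 3, and at 9.86, 13.12 and 11.87 FPKM in vector 1, 2 and 3. Fadd, the adaptor that recruits caspase-8, was at 7.88, 8.22 and 7.64 FPKM in STYK1 1, 2 and 3, and at 6.83, 5.94 and 7.08 FPKM in vector 1, 2 and 3. Neither overlapped between the groups, so 2 of the 6 were higher in that way, beside 13.6% of all genes. Their log2 differences were 0.25 for Ripk1 and 0.23 for Fadd, and 0.15 and 0.25 without vector 1. Neither gene passed (adjusted p = 0.469 for each, limma-trend).

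Of 8 tested transcription factors known to act on family genes, 0 passed at either threshold, and the groups did not overlap for 3, all higher, beside 13.6% of all genes higher in that way (median log2 difference 0.09, and 0.06 without vector 1). Foxo3, which drives Bcl2l11 and Bbc3, was at 26.43, 31.66 and 25.33 FPKM in STYK1 1, 2 and 3, and at 21.91, 24.25 and 23.83 FPKM in vector 1, 2 and 3. Its groups did not overlap, and its log2 difference was 0.24 ± 0.11 (SE, adjusted p = 0.469, limma-trend). Creb1 and Stat3, which drive protective genes, had log2 differences of 0.19 ± 0.10 and 0.14 ± 0.08 (SE, adjusted p = 0.471 and 0.478, limma-trend). Without vector 1 the differences were 0.20 for Foxo3, 0.15 for Creb1 and 0.10 for Stat3.

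The last list held genes for turnover and binding of the family proteins. Of 22 tested genes, 0 passed, 2 were higher and 1 lower at an unadjusted p under 0.05, beside 4.95% and 4.88% of all genes, and the median log2 difference was 0.04, against 0.01 for all genes. Huwe1, a ubiquitin ligase that targets MCL-1, was at 27.58, 31.50 and 27.76 FPKM in STYK1 1, 2 and 3, and at 22.48, 25.85 and 25.00 FPKM in vector 1, 2 and 3. Pim2, which encodes a kinase able to phosphorylate BAD, was at 13.30, 14.51 and 13.80 FPKM in STYK1 1, 2 and 3, and at 17.43, 17.38 and 15.56 FPKM in vector 1, 2 and 3. The groups did not overlap for either gene, with log2 differences of 0.23 ± 0.10 for Huwe1 and -0.26 ± 0.10 for Pim2 (SE, adjusted p = 0.469 for each, limma-trend). Without vector 1 the differences were 0.18 for Huwe1 and -0.23 for Pim2. Of the 22 genes, 4 were higher and 3 lower without overlap, beside 13.6% and 9.44% of all genes.

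**Figure D5:**
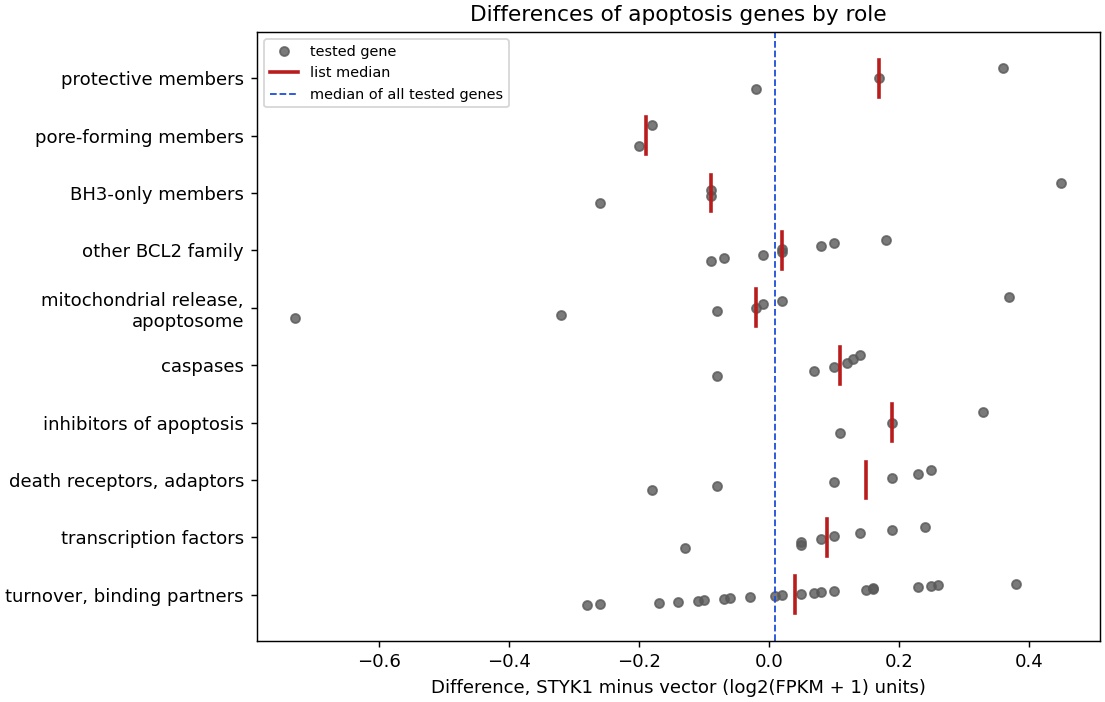
Log2 difference, STYK1 minus vector, of each tested apoptosis gene (points) by role, with list medians (red) and the median of all tested genes (dashed blue, 0.01). The points spread on both sides of 0 in 8 of the 10 lists, Endog lies farthest out at -0.73, and no gene shown passed the test.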

How the data were processed

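Each library had its own deposited file with 1 FPKM value per gene, a unit given per the file headers and computed by the authors. Bowtie 0.12.2 and the mouse builds mm8 and mm9 stand in the submitters' processing notes without a role, while the gene IDs are those of golden hamster. No source used here gives the genome, the annotation, the use of strand or the handling of reads shared by related genes. This leaves overlapping genes, close paralogs and comparisons of level between different genes uncertain. Of 16078 IDs, 15049 matched the RefSeq gene table of BCM_Maur_2.0, used for names alone.

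The 11464 genes whose mean reached 1 FPKM in a group were fitted with limma-trend (limma 3.58.1, R 4.3.3, robust) on log2(FPKM + 1) without further scaling, which understates changes of low genes, with Benjamini-Hochberg adjustment over all of them at 0.05. The code was tested on simulated data. Relative depth came from the spacing of values between 0.8 and 6 FPKM (bandwidth 0.005). Absolute depth is unknown, so no counting interval is given. The members, gene lists and tests were chosen with earlier results of these data known. Named genes are all members, all tested genes of the other family list, and up to 3 with the smallest p in each other list; some of these are not reported here. No pair of libraries shared over 0.591% identical values among genes at a mean of 1 FPKM or more.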

Additional observations from a re-analysis of the deposited data

How the results depend on the processing

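Across 124 values of the 9 tested members under the other settings, 115 kept their direction, 9 had the other sign and 0 were called. The other signs belong to Bcl2l1 (0.09 with equal FPKM sums, 0.01 after quantile normalization, -0.13 to 0.11 leaving out 1 library at a time), Bbc3 (0.02 with equal sums, 0.15 with quality weights, -0.30 to 0.25) and Bid (-0.17 to 0.02). The cause was not tested. With equal sums the median of all genes was 0.12, against 0.01 as deposited; there Mcl1 was at 0.28, Bax at -0.07, Bak1 at -0.09 and Bad at -0.15. Over all genes, quality weights, which gave vector 1 a weight of 0.129, called 24 genes, 0 of them members, and put 2365 at an unadjusted p under 0.05, against 0 and 1128 with equal weights. Leaving out 1 library called 0 to 2 genes, and 352 (without STYK1 1) to 1709 (without vector 3) were at an unadjusted p under 0.05. That count split into 568 higher and 560 lower as deposited, 1263 and 218 with equal sums, and 402 and 762 after median centring. The log2 difference in the protective to killing ratio was 0.28 as deposited, 0.31 after quantile normalization, 0.32 against the pore-forming genes alone, and 0.06 (without vector 1) to 0.40 leaving out 1 library; equal sums cannot change a ratio within a library. Correlations of deviations from the group mean were -0.273, -0.156 and 0.113 for replicate numbers 1, 2 and 3. They cannot tell whether the numbers pair the libraries, since deviations sum to 0 within a group and vector 1 stood far apart. With the number as a replicate block, 0 genes were called and 831 were at an unadjusted p under 0.05. Differences of low members such as Bid and Bok are the least certain at this unknown depth.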

Other observations

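Among 8124 named genes at a mean of 5 FPKM or more, those with the pattern nearest to Mcl1 over the 6 libraries were the RNA-binding protein genes Hnrnpm and Hnrnpu and the protein kinase A subunit gene Prkar1a. Their root mean square differences from it, after each gene was centred on its mean, were 0.0126, 0.0213 and 0.0189 log2 units, beside an SD of 0.130 for Mcl1 itself. Hnrnpm was at 146.55, 131.66 and 139.34 FPKM in STYK1 1, 2 and 3, and at 111.85, 123.98 and 130.53 FPKM in vector 1, 2 and 3. Nearest to Bax were Tut1, Bin1 and Pfdn5 (0.0186, 0.0253 and 0.0283 log2 units, SD of Bax 0.198), each highest in vector 1. Pfdn5, a prefoldin subunit gene, was at 103.31, 110.57 and 110.96 FPKM in STYK1 1, 2 and 3, and at 148.52, 107.73 and 115.42 FPKM in vector 1, 2 and 3.

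Nearest to Bbc3 were Chac1, a glutathione-degrading enzyme gene induced in the integrated stress response, and Plcd3 (0.0460 and 0.0617 log2 units, SD of Bbc3 0.394). Chac1 was at 8.96, 11.99 and 8.51 FPKM in STYK1 1, 2 and 3, and at 16.77, 8.58 and 7.82 FPKM in vector 1, 2 and 3. Its highest values were in vector 1 and STYK1 2, as for Bbc3, Bmf and Pmaip1, but not for the BH3-only genes Bad, Bcl2l11, Bid and Bik. The kinase gene Pim1 was high in the same libraries, at 12.49, 22.21 and 12.96 FPKM in STYK1 1, 2 and 3, and at 23.12, 14.63 and 12.08 FPKM in vector 1, 2 and 3, a gene named after its values were seen. With so many genes and 6 libraries, near matches of pattern are frequent, and these likenesses are descriptions.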
